A study of Mus musculus with 77 samples.

Results

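Scarring in the brain is built from a secreted matrix in which non-collagen proteins organise and stiffen the collagen network. The 10 genes described here encode such proteins and enzymes that crosslink collagen and elastin: Fn1, Tnc, Sparc, Postn, Lox, Loxl1, Loxl2, Fbn1, Thbs1 and Thbs2. They are 10 of the 52636 Ensembl genes counted in each table. They were taken as a list of gene symbols, chosen with earlier results of these data known. Their expression was followed across 77 RNA libraries of mouse cerebral white matter, each labelled with a cell type and with stroke or control. Stroke and control libraries numbered 8 and 7 in pericytes, 6 and 6 in OPC, 6 and 6 in astrocytes, and 7 and 5 in EC. Microglia libraries comprised 9 of P4 stroke, 9 of P2 stroke and 8 of P2 control. The labels do not expand EC, OPC, P2 or P4, and the strain and age of the mice, the stroke model, the time after stroke and the cell isolation were not stated by the labels. Whether each library came from its own mouse is not stated either, and p-values therefore reflect the spread among libraries, which may be technical.

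Fibronectin (Fn1) is assembled by cells into fibrils on which collagen and other matrix proteins are deposited, and fibrillin 1 (Fbn1) forms the microfibrils that carry elastin and hold latent TGF-beta in the matrix. Tenascin C (Tnc), osteonectin (Sparc), periostin (Postn) and the thrombospondins (Thbs1, Thbs2) are matricellular proteins, which tune how cells adhere to and remodel the matrix. Lysyl oxidase (Lox) and its relatives Loxl1 and Loxl2 oxidise lysines of collagen and elastin, from which the covalent crosslinks form. In the injured central nervous system, perivascular stromal cells are known to deposit fibronectin and collagen in the fibrotic core of a lesion, while in the healthy brain Sparc is known as a product of several glial and vascular cell types and thrombospondins as astrocyte proteins that promote synapse formation.

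Library totals ran from 43367636 to 142944063 counts in the pericyte, OPC, astrocyte and EC tables and from 5530125 to 11770194 counts in microglia, so that low genes are measured less precisely in microglia. Levels are CPM, counts scaled to a fixed library size, from the library total scaled by the trimmed mean of M-values (TMM). The label of each cell type was matched by its defining marker, as Pdgfrb averaged 1144 and 789.5 CPM in stroke and control pericytes and at most 52.8 CPM in the mean of any group of another label. The other labels were checked with Pdgfra in OPC, Gfap in astrocytes, Pecam1 in EC and Tmem119 in microglia, each of which had its highest group mean under its own label. For Tmem119 single libraries overlapped, at 263 to 592 CPM in P4 stroke microglia and 239.6 to 418 CPM in stroke pericytes. No label was pure: the 12 endothelial markers summed to 4139.6 ± 710.5 CPM in stroke and 3027 ± 443 CPM in control EC libraries (mean ± SD), less than the mature oligodendrocyte markers, at 14480.0 ± 3783 CPM in stroke and 13448 ± 3365 CPM in control EC libraries, and the 8 neuron markers, at 4899.6 ± 523 CPM in stroke and 7006 ± 1105 CPM in control EC libraries. The astrocyte markers there summed to 4112 ± 1238 CPM in stroke and 3323 ± 912 CPM in control libraries. In the other tables, the 10 mature oligodendrocyte markers summed to 64733 ± 7496 CPM in stroke and 104770.0 ± 5671 CPM in control OPC libraries, and the 10 fibroblast markers to 12961 ± 5819 CPM in stroke and 3592 ± 1537 CPM in control pericyte libraries. In such bulk libraries, more cells of a type and more RNA per cell cannot be told apart.

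All of the genes are protein coding (GRCm38 coordinates). Fn1 spans chr1:71585520-71653200, Tnc chr4:63959785-64047015, Sparc chr11:55394500-55423183, Loxl1 chr9:58287738-58313186, Fbn1 chr2:125300594-125507993 and Thbs2 chr17:14665500-14694235, all on the minus strand. Postn spans chr3:54361109-54391037, Loxl2 chr14:69609068-69695834 and Thbs1 chr2:118111876-118127133, on the plus strand. The reads carry no strand, so counts of overlapping genes cannot be told apart. In GENCODE M21, Fbn1 shares 2442 of its 12128 exon bases with the opposite-strand gene Gm9913, and Fn1, Tnc, Lox, Loxl2 and Thbs1 share at most 301 bases each with another gene.

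Of the 10 genes, 5 were matched by symbol in a RefSeq table of promoters (GRCm38.p6, 250 bases before to 50 bases after a transcript start), with 7 windows in all: Tnc, Sparc, Postn, Fbn1 and Thbs2. Fn1, Lox, Loxl1, Loxl2 and Thbs1 are named only. A window of each of Tnc, Sparc, Fbn1 and Thbs2, which passed the test in both pericytes and OPC, and of Postn, which passed it in OPC, is printed here 5′ to 3′ along the strand of the gene, with capitals marking the letters TATAAA of a TATA box in either direction. The Tnc window lies at chr4:64046887-64047186 on the minus strand, the Sparc window at chr11:55420031-55420330 on the minus strand, the Postn window at chr3:54360857-54361156 on the plus strand, the Fbn1 window at chr2:125506389-125506688 on the minus strand and the Thbs2 window at chr17:14694213-14694512 on the minus strand.
Tnc: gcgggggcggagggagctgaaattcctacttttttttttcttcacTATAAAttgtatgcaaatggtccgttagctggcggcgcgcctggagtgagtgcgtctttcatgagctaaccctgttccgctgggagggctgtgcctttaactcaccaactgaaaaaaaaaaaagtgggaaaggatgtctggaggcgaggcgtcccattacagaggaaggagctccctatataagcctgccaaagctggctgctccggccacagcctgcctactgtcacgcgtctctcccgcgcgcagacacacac
Sparc: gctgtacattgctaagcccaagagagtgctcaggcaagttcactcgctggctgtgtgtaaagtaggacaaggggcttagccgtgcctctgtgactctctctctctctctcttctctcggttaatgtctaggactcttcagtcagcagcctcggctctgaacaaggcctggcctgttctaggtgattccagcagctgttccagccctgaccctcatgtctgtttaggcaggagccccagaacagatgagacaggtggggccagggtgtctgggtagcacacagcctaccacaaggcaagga
Postn: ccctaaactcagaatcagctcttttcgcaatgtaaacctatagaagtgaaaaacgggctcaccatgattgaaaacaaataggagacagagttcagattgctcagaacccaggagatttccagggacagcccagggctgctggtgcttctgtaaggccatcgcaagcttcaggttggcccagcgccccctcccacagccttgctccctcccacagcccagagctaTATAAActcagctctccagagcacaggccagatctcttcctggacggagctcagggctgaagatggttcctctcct
Fbn1: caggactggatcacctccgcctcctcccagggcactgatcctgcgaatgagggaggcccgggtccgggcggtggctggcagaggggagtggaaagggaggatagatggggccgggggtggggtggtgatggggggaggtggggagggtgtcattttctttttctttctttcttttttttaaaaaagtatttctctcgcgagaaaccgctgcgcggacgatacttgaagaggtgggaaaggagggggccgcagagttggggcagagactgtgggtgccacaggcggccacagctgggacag
Thbs2: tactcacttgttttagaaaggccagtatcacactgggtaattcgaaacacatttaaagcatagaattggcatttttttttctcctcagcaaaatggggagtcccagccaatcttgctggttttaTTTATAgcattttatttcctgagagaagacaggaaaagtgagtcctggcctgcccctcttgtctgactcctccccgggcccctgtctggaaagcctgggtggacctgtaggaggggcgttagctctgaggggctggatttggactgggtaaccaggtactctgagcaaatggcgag
TATAAA stood at position -26 of the printed Postn window and at position -205 of the printed Tnc window, counted from the start site. On the other strand it stood at position -126 of the Thbs2 window. It was absent from the letters of the Sparc and Fbn1 windows and of the Postn window not printed. Only these exact letters were searched, and similar letters, as in tatataag of the printed Tnc window, were not marked. Among the 27025 genes of the table, 15.7% held TATAAA in a window. The AP-1 motif TGANTCA (8.97% of genes), the hypoxia core ACGTG (21.8%) and the TEAD motif GGAATG (16.6%), searched on both strands, occurred in none of the 7 windows. A match describes these letters and is not a binding site, and no match says only that the letters are not in this window.

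Without stroke, 7 of the 10 genes had their highest mean level in pericytes. Postn averaged 84.8 ± 64.4 CPM there (SD, n = 7), Thbs2 45.9 ± 14.5 CPM and Fbn1 14.3 ± 11.4 CPM, while Lox, Loxl1, Loxl2 and Thbs1 varied in control pericytes by more than their means. The exceptions were Fn1, highest in EC at 44.4 ± 10.1 CPM (n = 5), Tnc, highest in astrocytes at 30.5 ± 8.45 CPM (n = 6), and Sparc, highest in microglia at 2324 ± 653 CPM (n = 8). In the edgeR test, pericytes were not separated from microglia, next in order, for Postn (adjusted p = 0.337), Loxl2 (0.459) and Thbs1 (0.211). Nor were pericytes separated from astrocytes, next in order, for Loxl1 (adjusted p = 0.0890) and Thbs2 (0.603). They exceeded the next cell type for Lox (microglia, adjusted p = 0.0137) and Fbn1 (OPC, adjusted p = 0.00642). Per kilobase of exon, Sparc led in every one of the 11 groups, with 451 CPM per kb in control pericytes against 9.74 for Postn, the next gene there.

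By mean control level, Tnc was ordered as astrocytes, pericytes, EC, OPC and microglia. The difference of pericytes minus astrocytes was -2.77 on the log2 scale (edgeR adjusted p = 0.000213) and that of EC minus pericytes was -1.90 (adjusted p = 0.0107), whereas EC and OPC did not differ beyond their spread (adjusted p = 0.551). Fbn1 was ordered as pericytes, OPC, astrocytes, EC and microglia, with pericytes 1.93 above OPC (adjusted p = 0.00642), while OPC and astrocytes (adjusted p = 0.0617) and astrocytes and EC (adjusted p = 0.664) were not separated.

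Fn1 in EC and pericytes (adjusted p = 0.177) and in pericytes and microglia (adjusted p = 0.849) did not differ beyond the spread, and neither did Fn1 in astrocytes and OPC (adjusted p = 0.682). For Sparc, microglia exceeded pericytes (adjusted p = 0.0257) and pericytes exceeded astrocytes (adjusted p = 0.0412), but the first of these 2 differences did not pass under scaling by library totals alone (adjusted p = 0.131). Astrocytes and EC were not separated in Sparc (adjusted p = 0.130). Thbs2 in pericytes and astrocytes (adjusted p = 0.603) and in astrocytes and EC (adjusted p = 0.408) could not be separated, whereas astrocytes exceeded OPC (adjusted p = 0.00941). Of the 100 comparisons of a gene between pairs of cell types, 69 passed an adjusted p of 0.05. Every gene passed between pericytes and OPC. All but Fn1 and Thbs2 passed between EC and pericytes, and all but Loxl1 and Thbs2 between pericytes and astrocytes. Between EC and OPC, Fn1, Sparc and Fbn1 passed, and between EC and astrocytes Fn1, Tnc and Loxl1. Between OPC and astrocytes, Tnc, Sparc, Loxl1 and Thbs2 passed. Against microglia, every gene passed in astrocytes and all but Fn1 in EC. In OPC all but Lox and Thbs2 did, and in pericytes all but Fn1, Postn, Loxl2 and Thbs1. Among all 24172 genes tested, the share that passed was 11.5% between EC and astrocytes, 23.0% between EC and pericytes, 23.0% between EC and OPC, 14.3% between pericytes and astrocytes, 34.9% between pericytes and OPC, and 17.5% between OPC and astrocytes. It was 68.4% between pericytes and microglia, 69.4% between OPC and microglia, 69.5% between EC and microglia and 69.9% between astrocytes and microglia. The tables were counted separately, and microglia libraries are several times shallower.

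**Figure D1:**
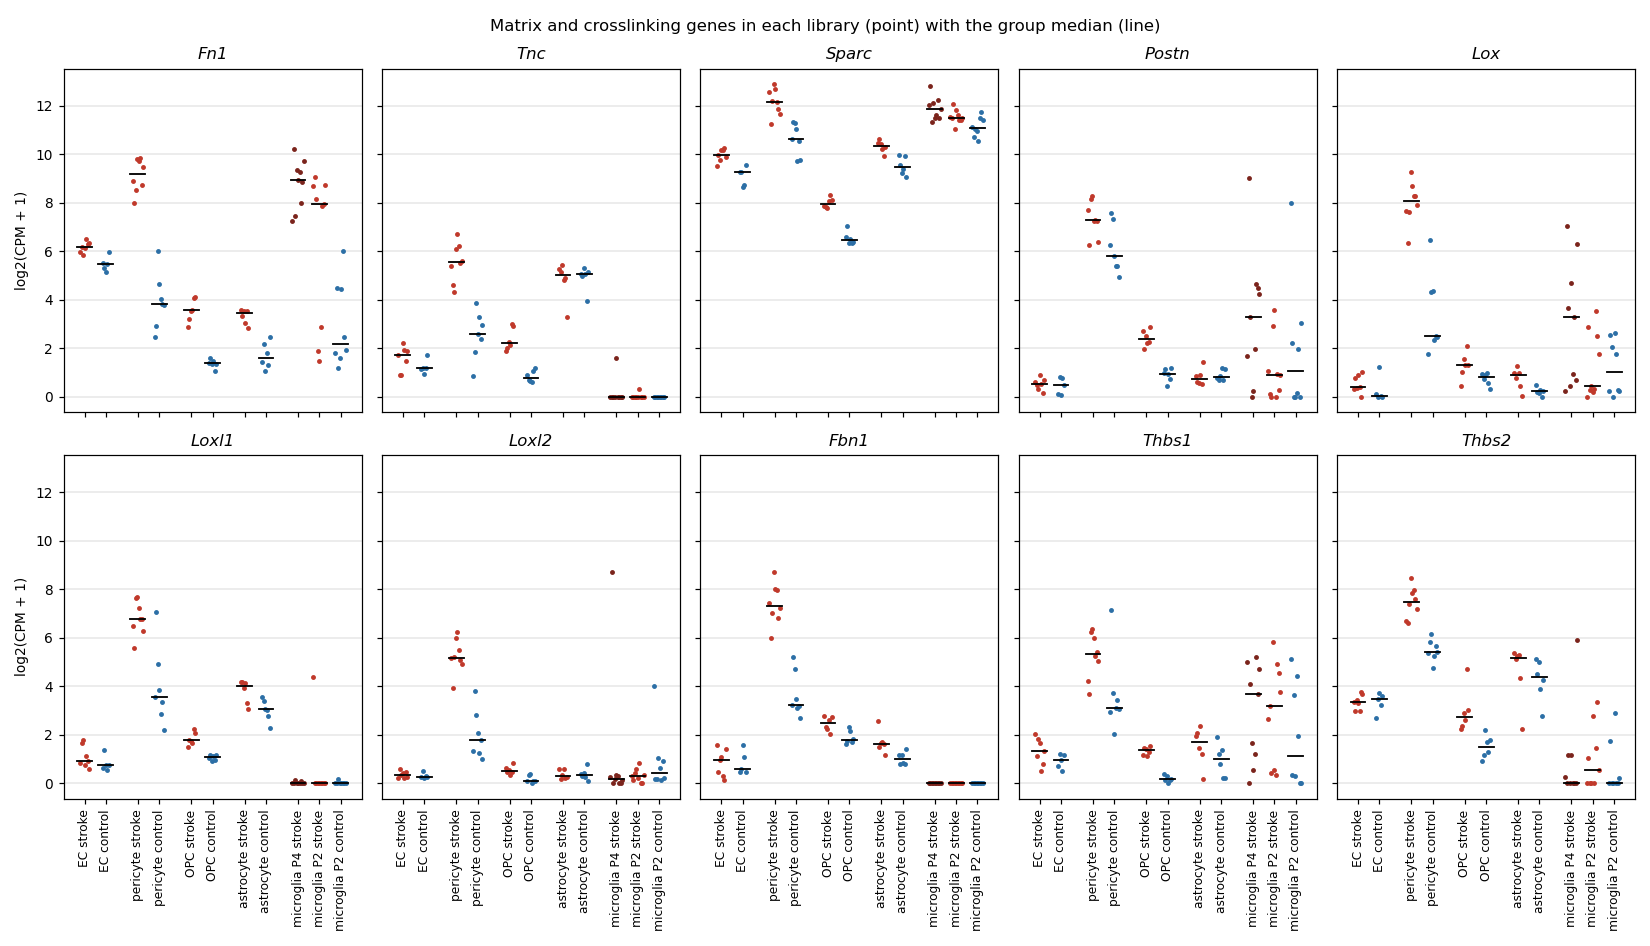
Level of each gene in each of the 77 libraries, as log2(CPM + 1) on the vertical axis, with 1 panel per gene, stroke groups in red (P4 stroke in dark red) and control groups in blue, and a line at the group median. Pericyte stroke libraries had the highest median of the 6 stroke groups for 10 of 10 genes, and Fbn1 stood at 0 in all microglia libraries.

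In libraries labelled as pericytes, the cells wrapped around small vessels, 8 of the 10 genes rose with stroke and none fell: Fn1, Fbn1, Lox, Loxl2, Tnc, Thbs2, Loxl1 and Sparc. Among all 21694 genes tested in pericytes, 28.7% passed, 15.9% rose and 12.8% fell at the same threshold. The median log2 fold change of the 10 genes was 2.60, against -0.08 for all genes tested. Summed over the 10 genes, levels were 3092 to 10589 CPM in stroke and 978.8 to 3276 CPM in control pericytes.

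Both scaffold genes rose. Fn1 ran from 255 to 912 CPM with a median of 586 CPM in stroke libraries and from 4.50 to 63.1 CPM with a median of 13.3 CPM in control libraries. The lowest stroke library thus held more than the highest control library. The change was 30.7-fold (log2 fold change 4.94 ± 0.56 (SE), edgeR adjusted p = 3.26e-05), higher than the control median in 8 of 8 stroke libraries. Fbn1 ran from 62.3 to 413 CPM with a median of 158 CPM in stroke and from 5.52 to 35.6 CPM with a median of 8.45 CPM in control libraries, again without overlap (log2 fold change 3.74 ± 0.49 (SE), edgeR adjusted p = 0.000103). Fbn1 had no counts in any microglia library, whereas Fn1 averaged 534 ± 333 CPM in the P4 stroke group of microglia (n = 9).

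All 3 crosslinking enzymes rose. Lox, which crosslinks collagen and elastin and lies at chr18:52516067-52529867 on the minus strand, ran from 80.4 to 618 CPM with a median of 273 CPM in stroke and from 2.38 to 87.7 CPM with a median of 4.63 CPM in control libraries (log2 fold change 3.86 ± 0.75 (SE), edgeR adjusted p = 0.00169). Loxl2, which acts on collagen of basement membranes among other substrates, ran from 14.0 to 74.6 CPM with a median of 35.2 CPM in stroke and from 0.971 to 12.9 CPM with a median of 2.42 CPM in control libraries (log2 fold change 3.33 ± 0.54 (SE), edgeR adjusted p = 0.000493). Loxl2 did not overlap between the groups, and Lox overlapped only through control library 6, at 87.7 CPM, and stroke library 3, at 80.4 CPM. Loxl1, which is needed for elastic fibre assembly in mice, ran from 46.0 to 205 CPM with a median of 107 CPM in stroke and from 3.52 to 133 CPM with a median of 10.7 CPM in control libraries (log2 fold change 2.05 ± 0.66 (SE), edgeR adjusted p = 0.0288). Control library 6 held 133 CPM of Loxl1, more than 5 of the 8 stroke libraries. The call for Loxl1 ended when control 5, 9, 11 or 14 or stroke 7 was left out, with adjusted p between 0.0531 and 0.0588.

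Among the matricellular genes, Tnc, scarce in healthy adult tissue and known to be induced in wounds, ran from 19.2 to 103 CPM with a median of 46.1 CPM in stroke and from 0.825 to 13.6 CPM with a median of 4.99 CPM in control libraries (log2 fold change 3.14 ± 0.50 (SE), edgeR adjusted p = 0.000435). Thbs2, which binds matrix metalloproteinases and limits angiogenesis, ran from 96.1 to 349 CPM with a median of 179 CPM in stroke and from 26.1 to 71.0 CPM with a median of 41.3 CPM in control libraries (log2 fold change 2.06 ± 0.28 (SE), edgeR adjusted p = 0.000146). Neither gene overlapped between the groups. Sparc, a collagen-binding glycoprotein, averaged 4853 ± 1772 CPM in stroke and 1709.6 ± 711 CPM in control pericytes (log2 fold change 1.50 ± 0.31 (SE), edgeR adjusted p = 0.00227). In all, 5 of the 10 genes were higher in every stroke than in every control pericyte library, against 4.47% of all genes tested.

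Postn and Thbs1 did not pass the test in pericytes. Postn, a scaffold for collagen crosslinking, averaged 177 ± 85.4 CPM in stroke and 84.8 ± 64.4 CPM in control libraries (log2 fold change 1.06 ± 0.42 (SE), edgeR adjusted p = 0.0679). Thbs1, an activator of latent TGF-beta, ran from 11.8 to 81.8 CPM with a median of 39.1 CPM in stroke and from 3.10 to 141 CPM with a median of 7.60 CPM in control libraries (log2 fold change 0.74 ± 0.72 (SE), edgeR adjusted p = 0.460). Its 8 stroke libraries all exceeded the control median, but control library 6 alone held 141 CPM, above every stroke library. Without control 6, Thbs1 had a log2 fold change of 2.52 (adjusted p = 0.000587) and Postn of 1.40 (adjusted p = 0.0144), and 10 of 10 genes passed. Postn was near the threshold in other alternatives too, and kept its result in 14 of 20. It became a call in 4 of the 15 fits with 1 library left out (edgeR adjusted p 0.0144 to 0.148 over the 15). Control 6 was the highest control library for 7 of the 10 genes, and its ependymal and choroid plexus markers summed to 5213 CPM, against 19.1 to 73.8 CPM in the other control libraries and 13.2 to 1949.9 CPM in stroke libraries; the part of such RNA in these levels was not tested. Without control 5 and 6 together, an alternative chosen after seeing the data, Thbs1 had a log2 fold change of 2.49 (adjusted p = 0.00181).

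Within the stroke group, library 3 was the lowest for 9 of the 10 genes and library 7 the highest for 7, so most of the genes shared their lowest and highest libraries. Control libraries 11 and 15 resembled each other more than any other pair of that group (mean chi-square per gene 15.8, against 116 for the next pair), though beyond sampling noise. Summed as 1 library, they left the same count of 8 calls, with Loxl1 at an adjusted p of 0.0494. Markers of other cell types moved with stroke in these libraries. All 12 microglia markers rose, and their sum was 2541 to 5255 CPM in stroke and 383 to 2142 CPM in control pericytes. Of the 10 fibroblast markers 5 rose, with sums of 4696 to 23991 CPM in stroke and 1967 to 5976 CPM in control libraries and none of the 10 markers at 0; Col1a1 averaged 1395 ± 947 CPM in stroke and 213 ± 136 CPM in control libraries. Pericyte markers summed to 13015 ± 3448 CPM in stroke and 12564 ± 4684 CPM in control libraries, with 2 of 10 higher. Beside them, fibroblast markers summed to 12961 ± 5819 CPM in stroke and 3592.5 ± 1537 CPM in control libraries, so both sums were alike in stroke. Of 10 mature oligodendrocyte markers 8 fell. Of 8 neuron markers 5 fell, with means of 769.6 ± 410.4 CPM in stroke and 1679 ± 692 CPM in control libraries. Both tested neutrophil markers and 2 of 9 tested monocyte and border macrophage markers rose. The 6 neutrophil markers summed to 132 ± 55.9 CPM in stroke and 28.1 ± 23.6 CPM in control pericytes. In P2 control microglia they summed to 1017 ± 388 CPM, with 4 of the 6 at 0. Whether this RNA in pericyte libraries came from neutrophils or microglia was not tested. The part of these cell types in the changes was not tested.

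**Figure D2:**
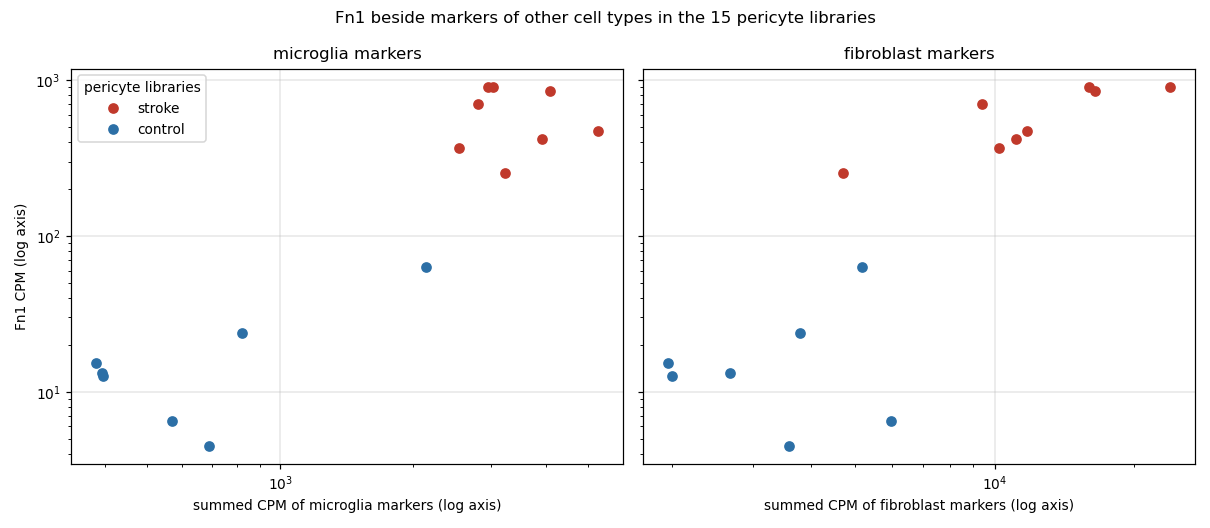
Fn1 (CPM, log axis) in the 15 pericyte libraries against the summed CPM (log axis) of 12 microglia markers on the left and 10 fibroblast markers on the right, with stroke libraries in red and control libraries in blue. Stroke libraries lie above all control libraries in Fn1 and to their right in the microglia sum, and the 2 groups overlap in the fibroblast sum.

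Genes that act with these proteins were counted against the shares of all tested pericyte genes, of which 15.9% rose and 12.8% fell. These partner lists were chosen with earlier results of these data known, so their counts are descriptive in every cell type. Of 18 other crosslinking and collagen-processing genes, 13 rose and 1 fell, including the procollagen proteinase Bmp1, at 446 ± 164 CPM in stroke and 75.9 ± 30.3 CPM in control libraries (log2 fold change 2.56, adjusted p = 4.68e-05), and the lysyl hydroxylase Plod2, at 119.6 ± 48.4 CPM in stroke and 23.7 ± 7.57 CPM in control libraries (log2 fold change 2.33, adjusted p = 6.81e-05). Of 23 matrix receptors, 14 rose and 1 fell. The fibronectin receptor subunit Itga5 averaged 92.7 ± 28.2 CPM in stroke and 17.3 ± 8.30 CPM in control libraries (log2 fold change 2.42, adjusted p = 7.74e-05), and the collagen receptor subunit Itga11 24.6 ± 8.16 CPM in stroke and 5.12 ± 1.73 CPM in control libraries (log2 fold change 2.27, adjusted p = 5.04e-05). Of 20 fibrotic regulators 16 rose and none fell, among them Runx1, at 67.9 ± 15.7 CPM in stroke and 7.62 ± 4.49 CPM in control libraries (log2 fold change 3.15, adjusted p = 8.69e-06), and Fap, a protease of activated fibroblasts, at 62.2 ± 27.6 CPM in stroke and 15.5 ± 3.72 CPM in control libraries (log2 fold change 2.01, adjusted p = 0.000103). Of 16 elastic fibre genes 5 rose, led by the fibulin Fbln2, at 817 ± 442 CPM in stroke and 65.0 ± 40.7 CPM in control libraries (log2 fold change 3.65, adjusted p = 4.79e-05). Of 20 other matricellular genes 3 rose and 2 fell, close to the shares of all genes; Spp1, osteopontin, averaged 12614 ± 3796 CPM in stroke and 893 ± 755 CPM in control libraries (log2 fold change 3.82, adjusted p = 0.000146). The median log2 fold changes of the lists were 1.57, 0.72, 1.11, 0.99 and 0.37 in the order given, against -0.08 for all genes.

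In OPC libraries, 9 of the 10 genes rose with stroke, although from low levels: Fn1, Thbs1, Tnc, Postn, Thbs2, Loxl2, Sparc, Loxl1 and Fbn1. Among all 18167 genes tested in OPC, 20.5% passed, 11.7% rose and 8.77% fell. The median log2 fold change of the 10 genes was 1.99, against -0.01 for all genes. With library totals alone as scaling, OPC had 3347 genes higher and 804 lower, against 2133 and 1593 with TMM, and the median of all genes was 0.11. Apart from Sparc, every gene averaged at most 11.4 CPM in stroke OPC libraries.

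Fn1 ran from 6.26 to 16.4 CPM with a median of 10.8 CPM in stroke and from 1.10 to 2.06 CPM with a median of 1.60 CPM in control OPC libraries (log2 fold change 2.81 ± 0.24 (SE), edgeR adjusted p = 1.46e-06). Thbs1 ran from 1.19 to 1.89 CPM with a median of 1.57 CPM in stroke and from 0 to 0.296 CPM with a median of 0.115 CPM in control libraries, where 1 of 6 libraries had no count (log2 fold change 3.37 ± 0.48 (SE), edgeR adjusted p = 0.000135). Both genes separated the 2 groups without overlap. Postn averaged 4.45 ± 1.27 CPM in stroke and 0.893 ± 0.344 CPM in control libraries (log2 fold change 2.32 ± 0.29 (SE), edgeR adjusted p = 3.99e-05). Tnc averaged 4.43 ± 1.89 CPM in stroke and 0.824 ± 0.314 CPM in control libraries (log2 fold change 2.43 ± 0.31 (SE), edgeR adjusted p = 4.82e-05). These genes, with Sparc, Loxl1 and Thbs2, made 7 of 10 genes without overlap between stroke and control, against 7.21% of all genes tested.

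Sparc ran from 221 to 322 CPM with a median of 248 CPM in stroke and from 79.3 to 131 CPM with a median of 86.3 CPM in control OPC libraries (log2 fold change 1.46 ± 0.13 (SE), edgeR adjusted p = 2.22e-06). Thbs2 rose by 2.13 ± 0.48 on the log2 scale (adjusted p = 0.00570), with stroke library 8 at 25.4 CPM above the other 5 stroke libraries at 3.70 to 7.15 CPM. Loxl1, at 2.61 ± 0.709 CPM in stroke and 1.08 ± 0.156 CPM in control libraries, rose by 1.27 ± 0.20 (adjusted p = 0.000350). Loxl2, at 0.467 ± 0.183 CPM in stroke and 0.126 ± 0.120 CPM in control libraries, and Fbn1, at 4.56 ± 1.10 CPM in stroke and 2.78 ± 0.792 CPM in control libraries, passed with adjusted p = 0.0236 and 0.0252. The Loxl2 call ended without control 4 or 11 or stroke 10 (adjusted p 0.0539 to 0.0604), and the Fbn1 call without control 4 or 11 or stroke 1, 5 or 10 (0.0557 to 0.0612). Lox averaged 1.60 ± 0.978 CPM in stroke and 0.699 ± 0.289 CPM in control libraries and did not pass (log2 fold change 1.18 ± 0.43 (SE), edgeR adjusted p = 0.0678), but did so without stroke 1 (adjusted p = 0.0157), with DESeq2 (0.0303) and with library totals as scaling (0.0418).

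Markers of other cells rose in stroke OPC libraries as well. All 12 microglia markers rose, with sums of 552 to 1012 CPM in stroke and 97.2 to 168 CPM in control libraries. Of the 8 fibroblast markers tested 6 rose and 1 fell, with sums of 41.8 to 111 CPM in stroke and 11.9 to 21.0 CPM in control libraries, and 7 of 10 astrocyte markers rose, with means of 2148 ± 975 CPM in stroke and 702 ± 107 CPM in control libraries. None of these markers was at 0 in all libraries of a group. All 10 mature oligodendrocyte markers fell, and so did 5 of 8 neuron markers, with means of 327 ± 79.0 CPM in stroke and 559 ± 216 CPM in control libraries. OPC markers summed to 12506 ± 977 CPM in stroke and 13242 ± 906 CPM in control libraries. Tnc, Loxl1 and Fbn1 totalled 24, 192 and 0 counts over the 26 microglia libraries. Of these, 23 counts of Tnc lay in a single P4 stroke library and 189 of Loxl1 in a single P2 stroke library. The part of microglia and of the other cell types named here in the OPC changes was not tested.

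Partner genes in OPC were likewise set against the 11.7% of all genes that rose and the 8.77% that fell. Of 20 tested matrix receptors 11 rose and 1 fell, including the hyaluronan receptor Cd44, at 32.9 ± 22.4 CPM in stroke and 0.749 ± 0.783 CPM in control libraries (log2 fold change 5.45, adjusted p = 8.34e-06), and Itgb5, a vitronectin receptor subunit, at 99.8 ± 20.3 CPM in stroke and 19.1 ± 6.97 CPM in control libraries (log2 fold change 2.38, adjusted p = 1.85e-06). Of 17 tested crosslinking genes 6 rose and 1 fell. The transglutaminase Tgm1 averaged 14.2 ± 10.1 CPM in stroke and 0.235 ± 0.324 CPM in control libraries (log2 fold change 5.96, adjusted p = 2.84e-05) and the prolyl hydroxylase P4ha3 28.8 ± 23.2 CPM in stroke and 1.13 ± 0.604 CPM in control libraries (log2 fold change 4.67, adjusted p = 8.84e-06). Of 19 fibrotic regulators 8 rose and 1 fell, with the TGF-beta receptor Tgfbr2 at 25.8 ± 7.01 CPM in stroke and 4.21 ± 1.25 CPM in control libraries (log2 fold change 2.62, adjusted p = 1.49e-06). Of 16 elastic fibre genes 5 rose, and of 19 matricellular genes 7 rose and 2 fell. The median log2 fold changes were 0.82 for receptors, 0.35 for crosslinking, 0.41 for regulators, 0.37 for elastic fibre and 0.38 for matricellular genes, against -0.01 for all genes.

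In astrocytes, Fn1, Sparc and Fbn1 rose, 3 of the 10 genes, while Tnc and Thbs2, the most abundant of the others, did not pass. Among all 18796 genes tested in astrocytes, 10.3% passed, 5.63% rose and 4.68% fell. Fn1 ran from 6.09 to 11.0 CPM with a median of 9.85 CPM in stroke and from 1.07 to 4.59 CPM with a median of 2.08 CPM in control libraries, without overlap (log2 fold change 1.89 ± 0.33 (SE), edgeR adjusted p = 0.00199). It was the only gene of the 10 without overlap, against 4.18% of all genes tested. Sparc ran from 963 to 1579 CPM with a median of 1311 CPM in stroke and from 529.5 to 1006 CPM with a median of 709 CPM in control libraries (log2 fold change 0.78 ± 0.17 (SE), edgeR adjusted p = 0.00978). Fbn1 averaged 2.39 ± 1.30 CPM in stroke and 1.06 ± 0.367 CPM in control libraries (log2 fold change 1.18 ± 0.35 (SE), edgeR adjusted p = 0.0473). That call ended in 11 alternatives, 10 of them leaving out a single library (adjusted p up to 0.107), and without stroke 3, at 4.96 CPM, the log2 fold change was 0.87.

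Tnc stood at 29.8 ± 11.7 CPM in stroke and 30.5 ± 8.45 CPM in control astrocytes, and its groups overlapped widely (log2 fold change -0.03 ± 0.31 (SE), edgeR adjusted p = 0.966). Thbs2 averaged 28.6 ± 14.3 CPM in stroke and 20.6 ± 10.5 CPM in control libraries (log2 fold change 0.47 ± 0.48 (SE), edgeR adjusted p = 0.614). Stroke library 12 was the lowest of its group for 7 of the 10 genes, at 8.80 CPM of Tnc and 3.76 CPM of Thbs2. Without it, Loxl1 (log2 fold change 1.02, adjusted p = 0.0203) and Lox (2.35, adjusted p = 0.0349) also passed, and 5 of 10 genes were called. With it, Loxl1 averaged 13.4 ± 4.27 CPM in stroke and 7.37 ± 2.44 CPM in control libraries (log2 fold change 0.87 ± 0.27 (SE), edgeR adjusted p = 0.0540), and Lox reached at most 1.43 CPM in a library (log2 fold change 2.05 ± 0.80 (SE), edgeR adjusted p = 0.134). Postn, Loxl2 and Thbs1 did not pass, with adjusted p = 0.907, 0.911 and 0.470.

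Of 12 microglia markers 11 rose in stroke astrocyte libraries, with sums of 1549 to 2363 CPM in stroke and 509 to 690.2 CPM in control libraries. Fibroblast markers summed to 25.3 to 36.5 CPM in stroke and 10.5 to 19.5 CPM in control libraries, with 3 of 8 higher. Of 8 neuron markers 6 fell, with means of 990.2 ± 365 CPM in stroke and 2057 ± 237 CPM in control libraries. Of 6 tested monocyte and border macrophage markers 4 rose and 1 fell, and the whole list summed to 16.8 ± 8.15 CPM in stroke and 2.15 ± 0.814 CPM in control libraries. None of the 10 astrocyte markers passed, and the part of these cell types in the changes was not tested. Among the partner genes, 7 of 18 fibrotic regulators, 6 of 22 receptors, 4 of 18 crosslinking genes and 2 of 15 elastic fibre genes rose and none fell, while 5 of 20 matricellular genes rose and 1 fell. Tgfb1 averaged 7.05 ± 0.744 CPM in stroke and 2.51 ± 0.655 CPM in control libraries (log2 fold change 1.49, adjusted p = 0.000203), and the thrombospondin receptor Cd36 4.59 ± 1.40 CPM in stroke and 0.318 ± 0.139 CPM in control libraries (log2 fold change 3.84, adjusted p = 1.31e-05). Ccn2, a matricellular target of TGF-beta and YAP, averaged 76.8 ± 22.3 CPM in stroke and 157 ± 58.8 CPM in control libraries (log2 fold change -1.04, adjusted p = 0.0262). The list medians were 0.45, 0.36, 0.23, 0.27 and 0.03 on the log2 scale, against -0.04 for all genes.

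In EC libraries, 2 of the 10 genes rose, Fn1 and Sparc, and the others did not pass. Among all 20995 genes tested in EC, 6.23% passed, 3.57% rose and 2.67% fell. Fn1 ran from 57.3 to 90.8 CPM with a median of 71.3 CPM in the 7 stroke libraries, against 45.3, 38.4, 34.2, 43.3 and 60.8 CPM in control libraries 3, 5, 7, 9 and 11. All stroke libraries but 1 exceeded the highest control library (log2 fold change 0.71 ± 0.14 (SE), edgeR adjusted p = 0.0171). Sparc ran from 727 to 1220.4 CPM with a median of 997 CPM in stroke libraries, against 618, 616, 397, 427 and 742 CPM in the control libraries, with 6 of 7 stroke libraries above all of them (log2 fold change 0.85 ± 0.17 (SE), edgeR adjusted p = 0.0162). Without control 7 or control 9 neither gene passed, with adjusted p between 0.0539 and 0.0596. Control 7 and 9 resembled each other more than any other pair of that group (mean chi-square per gene 44.6, against 87.2 for the next pair). They were kept as separate libraries. EC libraries numbered up to 6 held 123424129 to 142944063 counts and those above 6 held 57569368 to 80697263. Within the libraries up to 6, the log2 fold changes were 0.60 for Fn1 and 0.48 for Sparc, and within those above 6 they were 0.79 and 1.10, with adjusted p of at least 0.0691 in each case.

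Thbs2, the next most abundant gene in EC, did not pass, at 9.39 ± 2.13 CPM in stroke and 9.44 ± 2.68 CPM in control libraries (log2 fold change -0.01 ± 0.21 (SE), edgeR adjusted p = 0.991). The other 7 genes averaged at most 2.14 CPM in either group, and their adjusted p values lay between 0.281 and 0.979. With library totals alone as scaling, EC had 940 genes higher and 254 lower, against 749 and 560 with TMM. The median log2 fold change of the 10 genes was 0.62, against 0.03 for all genes tested, and none of the 10 separated the groups without overlap, against 1.85% of all genes higher in every stroke library. Microglia markers summed to 227 to 406 CPM in stroke and 129.9 to 202 CPM in control EC libraries, with 6 of 12 higher, and fibroblast markers to 36.2 to 56.8 CPM in stroke and 23.3 to 32.8 CPM in control libraries, with 1 of 10 higher. Of 8 neuron markers 5 fell, and of 8 tested monocyte and border macrophage markers 3 rose, with list sums of 21.6 ± 9.02 CPM in stroke and 13.6 ± 5.60 CPM in control libraries. The part of these cell types was not tested. Of 12 endothelial markers 4 rose. Of the partner genes, 4 of 23 receptors, 3 of 16 elastic fibre genes, 3 of 20 regulators, 2 of 20 matricellular genes and 1 of 18 crosslinking genes rose and none fell. The latent TGF-beta binding protein Ltbp2 averaged 2.25 ± 1.49 CPM in stroke and 0.0493 ± 0.0623 CPM in control libraries (log2 fold change 5.33, adjusted p = 0.00952) and elastin, Eln, 14.2 ± 3.91 CPM in stroke and 7.25 ± 1.50 CPM in control libraries (log2 fold change 0.97, adjusted p = 0.0201).

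**Figure D3:**
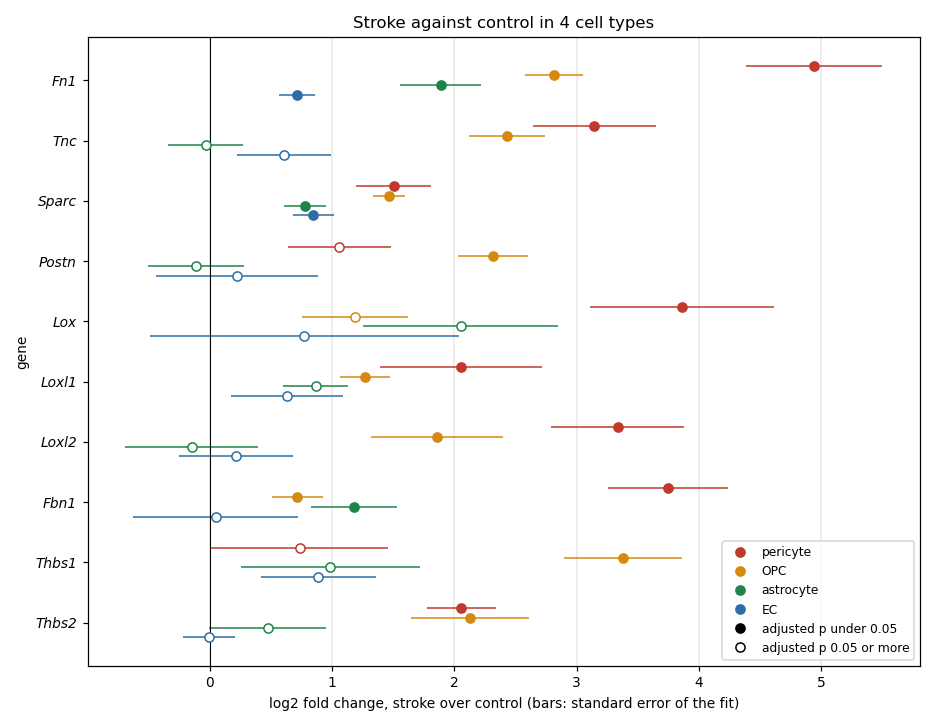
Log2 fold change of stroke over control for each gene in pericytes, OPC, astrocytes and EC, with the standard error of the fit as a bar and filled points for an adjusted p under 0.05. Fn1 and Sparc are filled in all 4 cell types, with Fn1 between 0.71 in EC and 4.94 in pericytes.

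Whether the stroke effect differed between the 4 cell types was tested with the interaction of cell type and condition over 51 libraries. It passed for 6 of the 10 genes: Fn1 (adjusted p = 2.00e-07), Tnc (0.000132), Fbn1 (0.000228), Loxl2 (0.000713), Thbs2 (0.00850) and Postn (0.0203), against 14.3% of the 25257 genes tested. It did not pass for Lox (0.0981), Sparc (0.153), Thbs1 (0.166) and Loxl1 (0.367). Without pericyte control 5 and 6, an alternative chosen after seeing the data, 9 of the 10 genes passed.

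Fn1 separated the cell types most. Its log2 fold change was higher in pericytes than in EC by 4.24 (95% interval 3.27 to 5.21, adjusted p = 4.53e-08), than in astrocytes by 3.01 (95% interval 2.03 to 4.00, adjusted p = 6.21e-05) and than in OPC by 2.08 (95% interval 1.10 to 3.06, adjusted p = 0.00421). Fbn1 was also called for pericytes over the other cell types, by 3.70 (95% interval 2.41 to 4.99, adjusted p = 0.000136) over EC, 2.98 (95% interval 1.73 to 4.23, adjusted p = 0.00139) over OPC and 2.53 (95% interval 1.25 to 3.81, adjusted p = 0.0121) over astrocytes. The Loxl2 change in pericytes exceeded that in EC by 3.13 (95% interval 1.78 to 4.48, adjusted p = 0.00191) and that in astrocytes by 3.48 (95% interval 2.08 to 4.87, adjusted p = 0.00124). Against OPC the Loxl2 difference was 1.43 and did not pass (95% interval 0.01 to 2.85, edgeR unadjusted p = 0.0537, adjusted p = 0.192). The intervals here are normal approximations, narrower than the test, so this one excludes no difference although its unadjusted p is above 0.05. The stroke effect was larger in pericytes than in astrocytes for 4 of the 10 genes, than in EC for 5 and than in OPC for 2, where 6.43%, 13.3% and 11.1% of all genes differed. With the P2 microglia groups in the same fit, 10 of the 15 pairwise calls between cell types ended (adjusted p of at least 0.193), and those for pericytes over EC in Fn1, Tnc and Fbn1, over OPC in Fbn1 and over astrocytes in Tnc held.

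For Tnc, Sparc and Thbs2, the changes in pericytes and OPC did not differ beyond their error, and the intervals were wide. The difference of pericytes minus OPC was -0.01 (95% interval -0.64 to 0.62, adjusted p = 0.997) for Sparc, -0.14 (95% interval -1.26 to 0.98, adjusted p = 0.903) for Thbs2 and 0.65 (95% interval -0.47 to 1.78, adjusted p = 0.477) for Tnc. For Postn and Thbs1 the estimates lay on the side of OPC without passing, at -1.30 (95% interval -2.43 to -0.17, adjusted p = 0.132) for Postn and -2.69 (95% interval -4.64 to -0.74, adjusted p = 0.0699) for Thbs1. With library totals as scaling the Thbs1 difference was -2.89 and passed (adjusted p = 0.0354), and without pericyte control 5 and 6 it was -0.94 (adjusted p = 0.443). OPC minus astrocytes passed for Tnc, by 2.49 (95% interval 1.30 to 3.67, adjusted p = 0.0189), and Postn, by 2.46 (95% interval 1.18 to 3.75, adjusted p = 0.0375), against 1.43% of all genes. EC minus OPC passed for Fn1, by -2.16 (95% interval -3.18 to -1.14, adjusted p = 0.0104), and Thbs2, by -2.20 ± 0.61 (SE, adjusted p = 0.0360), against 2.36% of all genes. None of the 10 genes passed for EC minus astrocytes, where 0.0475% of all genes did; for Sparc that difference was 0.05 (95% interval -0.61 to 0.72, adjusted p = 1.00). Scaled by library totals alone, the median log2 fold change of all genes in pericytes was -0.28 rather than -0.08, with 2573 genes higher and 4198 lower, against 3440 and 2787 with TMM; the count of called members stayed at 8.

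In microglia, 6 of the 10 genes passed the filter on low counts and were tested, and none of these was called. Fn1 was above 100 CPM in 9 of 9 P4 stroke libraries, 6 of 9 P2 stroke libraries and none of 8 P2 control libraries. It ran from 149 to 1178 CPM with a median of 489 CPM in P4 stroke, from 1.81 to 527 CPM with a median of 246 CPM in P2 stroke and from 1.30 to 63.2 CPM with a median of 3.64 CPM in P2 control. P2 stroke libraries 9, 10 and 11 lay within the range of the control libraries, at 2.75, 1.81 and 6.29 CPM. P2 stroke against P2 control gave a log2 fold change of 4.00 ± 0.91 (SE, edgeR adjusted p = 0.134, unadjusted p = 0.000107). Among all 13225 genes tested, 0.00756% were called, 1342 had an unadjusted p under 0.05, and DESeq2 called 155. Fn1 passed with DESeq2 (adjusted p = 0.000695) and without P2 control 12 (log2 fold change 4.90, adjusted p = 0.0205).

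Sparc was abundant in microglia of every group, at 3989 ± 1420.4 CPM in P4 stroke, 3044 ± 605 CPM in P2 stroke and 2324 ± 653 CPM in P2 control (SD, n = 9, 9 and 8). Neither P2 stroke against P2 control (log2 fold change 0.39 ± 0.23 (SE), edgeR adjusted p = 0.566) nor P4 stroke against P2 stroke (log2 fold change 0.39 ± 0.22 (SE), edgeR adjusted p = 0.518) passed. Of the other genes, several were high in single libraries. Postn was at 511 CPM in P4 stroke library 19 and at 255 CPM in P2 control library 1, and at most 24.4 CPM in the other microglia libraries. P4 stroke library 19 also held 418 CPM of Loxl2 and 131 CPM of Lox. Its TMM factor was 0.406, against 0.841 to 1.28 in the other P4 stroke libraries, and 5876 genes had at least 10 counts, against 8982 to 13291. By library totals alone it held 205 CPM of Postn, 168 CPM of Loxl2 and 52.6 CPM of Lox, where the other P4 stroke libraries reached at most 27.4, 0.339 and 97.6 CPM. P4 stroke library 26 held 58.5 CPM of Thbs2. Thbs1 ran from 0 to 36.1 CPM with a median of 11.7 CPM in P4 stroke, from 0.262 to 55.6 CPM with a median of 8.07 CPM in P2 stroke and from 0 to 33.7 CPM with a median of 1.54 CPM in P2 control, so the 3 groups overlapped.

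P4 stroke against P2 stroke called none of the 6 tested genes, with Fn1 at a log2 fold change of 1.17 ± 0.78 (adjusted p = 0.608) and Lox at 3.34 ± 1.33 (adjusted p = 0.318). Among all genes, 0.00756% were called, 1517 had an unadjusted p under 0.05, and DESeq2 called 145. No P4 control group was analysed here. Tnc, Loxl1, Loxl2 and Fbn1 did not pass the filter on low counts. Fbn1 had 0 counts in all 26 microglia libraries, where a limit of 3 counts corresponds to 0.0137 CPM over these libraries, and Tnc was counted in 2 of them. Microglia markers summed to 19298 ± 8737 CPM in P4 stroke, 20813 ± 9546 CPM in P2 stroke and 17766 ± 4519 CPM in P2 control.

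**Figure D4:**
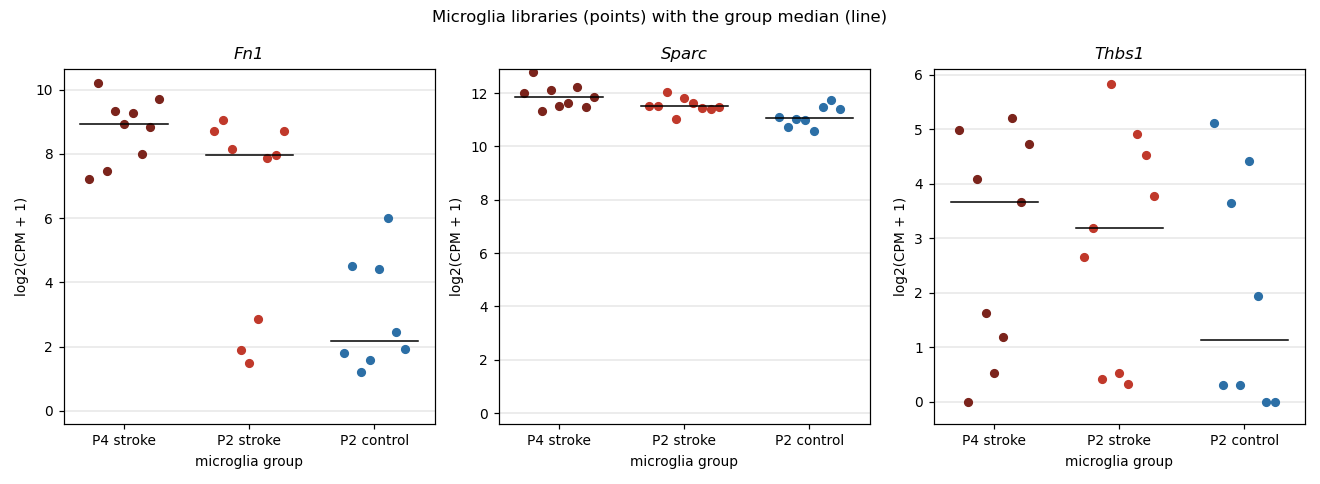
Fn1, Sparc and Thbs1 in each microglia library as log2(CPM + 1), with P4 stroke, P2 stroke and P2 control from left to right and a line at the group median. For Fn1 the P4 stroke libraries lie above all P2 control libraries and 3 of the 9 P2 stroke libraries lie among them, while the groups overlap for Sparc and Thbs1.

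Across all 77 libraries, the genes shared patterns to different degrees. As a description over libraries that share cell type, condition and table, Loxl1 and Fbn1 correlated at r = 0.88 (Pearson, log2(CPM + 1)), Loxl1 and Thbs2 at 0.84, Postn and Loxl2 at 0.83, and Tnc and Loxl1 at 0.83. Fn1 and Tnc had the lowest likeness named here (r = 0.0043), and Fn1 was closest to Sparc among the members (r = 0.63). Among 17982 genes with a mean of at least 1 CPM, the genes most like Fn1 were Ch25h, the cholesterol 25-hydroxylase (r = 0.92), Cst7 (0.85) and Slfn5 (0.84). The genes most like Fbn1 were Col5a3 (0.95), Fndc1 (0.95) and Col8a1 (0.95), 2 of which encode collagen chains. Tnc was most like Dmp1 (0.93), Lif (0.92) and Gli2 (0.92), and Sparc most like Pros1 (0.92), Ctsh (0.90) and Rnase4 (0.89).

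The crosslinking enzymes had different neighbours: Lox was most like Ccl11 (0.86), H2-Q10 (0.86) and Saa3 (0.85), Loxl1 like Rbm46 (0.94), Akr1b8 (0.93) and Snhg18 (0.92), and Loxl2 like Plac8 (0.82), Slco2a1 (0.80) and Jak1 (0.80). Postn was most like Mrvi1 (0.84), Lum (0.80) and Twist1 (0.80), and Thbs2 like Six5 (0.92), Serping1 (0.91) and Akr1b8 (0.91). Thbs1 had the weakest neighbours, Tgfbi (0.76), Tfpi (0.73) and Nid2 (0.69). Such coefficients carry depth and cell type in common and were not tested.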

How the data were processed

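RNA was extracted with the NucleoSpin RNA XS kit and made into libraries with SMART-Seq v4, per the labels' protocols, a chemistry without strand or molecular identifiers. The deposited values are raw counts of reads per Ensembl gene, 1 table per cell type, and the submitters' processing notes name bcl2fastq 2.20, STAR, HTSeq and GRCm38. The column names of 51 libraries begin with the name of another aligner, hisat, so the aligner is not settled. Library columns were matched to the labels by cell type, condition and number, and 0 columns belonged to other samples. Each table was fitted whole with edgeR 4.0.16 (R 4.3.3, limma 3.58.1): TMM scaling, the filterByExpr filter on low counts, the quasi-likelihood test and Benjamini-Hochberg adjustment over all genes tested, at 0.05. The 3 microglia groups shared 1 fit, and the interaction and the control levels were fitted over the joined tables. The standard error of a log2 fold change is its size divided by the root of the F statistic. The 95% intervals are normal approximations from this standard error and are somewhat narrower than the quasi-likelihood test. The script was tested on simulated data. Alternatives were DESeq2 1.42.0, library totals as scaling, no filter beyond 1 count, and each library left out. Tables and figures were made with Python 3.11.15, pandas 2.3.3 and matplotlib 3.10.9.

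The 10 genes, the lists of partner genes and the marker lists were chosen with earlier results of these data known. Their shares beside those of all genes describe these lists and are no independent test. Named genes are the 10 members, up to 3 called genes by p of each partner list in a comparison, the 3 genes most correlated with each member, and 1 marker for each cell type label. Col1a1 was named after its values were seen. No value of the interaction or of the control levels between tables is free of differences between tables, since cell type and table cannot be told apart.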

Additional observations from a re-analysis of the deposited data

Results flagged for a closer look

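In 19 of 98 sets of values of a gene in a group, 1 library lay far from the rest of its group by Dixon's test on CPM. Its chance rate of about 1 in 20 holds for normally distributed values, which CPM without a log need not follow. The count of 19 therefore does not measure an excess over chance. Pericyte control 6 did so for 4 genes, with Lox at 87.7 CPM, against 2.38 to 19.4 CPM in the others, Loxl1 at 133 CPM, against 3.52 to 28.8 CPM in the others, Loxl2 at 12.9 CPM, against 0.971 to 6.01 CPM in the others, and Thbs1 at 141 CPM, against 3.10 to 12.0 CPM in the others. Pericyte control 8 had Fn1 at 63.1 CPM, against 4.50 to 23.9 CPM in the others.

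In microglia, P4 stroke library 19 had Postn at 511 CPM, against 0 to 24.4 CPM in the others, and Sparc at 7181 CPM, against 2605 to 4817 CPM in the others. By library totals alone, Sparc in library 19 was at 2884 CPM, below the 2946 to 5419.9 CPM of the other P4 stroke libraries, and Postn at 205 CPM, above their 0 to 27.4 CPM. The TMM factor of library 19 was 0.406, the lowest of the group. P4 stroke library 26 had Thbs2 at 58.5 CPM, against 0 to 1.25 CPM in the others. Among P2 control libraries, Postn in library 1 was at 255 CPM, against 0 to 7.26 CPM in the others, Thbs2 in library 8 at 6.42 CPM, against 0 to 2.35 CPM in the others, and Fn1 in library 12 at 63.2 CPM, against 1.30 to 21.6 CPM in the others.

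In OPC libraries, Thbs2 in stroke 8 was at 25.4 CPM, against 3.70 to 7.15 CPM in the others, and Sparc in control 6 at 131 CPM, against 79.3 to 95.2 CPM in the others. Among astrocytes, Fbn1 in stroke 3 was at 4.96 CPM, against 1.23 to 2.23 CPM in the others, Postn in stroke 12 at 1.69 CPM, against 0.445 to 0.874 CPM in the others, and Tnc in control 9 at 14.2 CPM, against 30.5 to 38.7 CPM in the others. Among EC control libraries, Tnc in library 11 was at 2.34 CPM, against 0.899 to 1.30 CPM in the others, Lox in library 7 at 1.37 CPM, against 0 to 0.0679 CPM in the others, and Loxl1 in library 5 at 1.59 CPM, against 0.458 to 0.690 CPM in the others.

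The stroke effect differed between pericytes, OPC, astrocytes and EC in 6 genes, by the edgeR interaction test with adjusted p = 2.00e-07 for Fn1, 0.000132 for Tnc, 0.000228 for Fbn1, 0.000713 for Loxl2, 0.00850 for Thbs2 and 0.0203 for Postn.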

How the results depend on the processing

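No paired analysis was possible because stroke and control libraries of a cell type share no library number. Over the member genes in all comparisons, 1101 values under an alternative kept direction and call, 30 became calls, 43 lost a call and 51 reversed. In the 6 comparisons made within a table, 16 of 22 called results of the members kept direction and call under every alternative run. Of the 30 uncalled results there, 12 did so.

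The count of genes called in EC, 1309, became 2740 with DESeq2, 862 without the filter on low counts, and 0 within library numbers up to 6 and above 6, and ran from 138 to 1493 when 1 library was left out (lowest without control 7, 195 without control 9). Of the 10 members, 2 were called in EC, 0 within either range of numbers, and 0 to 2 with 1 library left out. Members called in astrocytes ran from 2 to 5. In microglia, P2 stroke against P2 control called 1 gene, 155 with DESeq2, 2 without the filter and 0 with the 2 groups alone. It called 2 without libraries under 10000 genes with at least 10 counts, and 0 to 15 with 1 library left out. The limit of 10000 genes removed P2 stroke 9, 10 and 11 (the P2 stroke libraries lowest in Fn1) and P2 control 13 and 14. It also removed P4 stroke 18 and 19 from the shared fit. Members called went to 1 with DESeq2 and without those libraries, and ran from 0 to 1 with 1 library left out. P4 stroke against P2 stroke called 1 gene, 145 with DESeq2, 52 without the filter, 0 with the 2 groups alone, 0 without libraries under 10000 genes, and 1 to 3 with 1 library left out. The cause was not tested.

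No reversed value passed its test. With 1 library left out, log2 fold changes ran in EC from -0.0713 to 0.63 for Postn, -0.28 to 0.60 for Fbn1 and -0.16 to 0.10 for Thbs2, and in astrocytes from -0.14 to 0.19 for Tnc, -0.44 to 0.0422 for Postn and -0.36 to 0.32 for Loxl2. In P2 microglia they ran from -4.75 to 0.19 for Postn, -0.13 to 0.84 for Lox and -0.0521 to 2.42 for Thbs2, and for P4 against P2 stroke from -0.44 to 0.48 for Thbs1 and -2.49 to 2.63 for Thbs2. In EC, numbers up to 6 gave -0.12 for Postn, -0.0101 for Loxl2 and 0.14 for Thbs2, numbers above 6 -0.62 for Fbn1, and library totals 0.0592 and the number range as a covariate 0.0119 for Thbs2. Astrocyte Tnc without the filter was 0.00521, microglia Postn with DESeq2 0.0653, and Thbs1 in P4 against P2 stroke without libraries under 10000 genes 0.0365. Between cell types, Thbs1 without pericyte control 5 and 6 was 1.61 for pericytes minus EC and 1.51 for pericytes minus astrocytes, and Sparc for pericytes minus OPC was 0.0525 with microglia in the fit and 0.13 without those controls. The control level of Postn in OPC minus astrocytes was -0.0225 with library totals.

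The limit of 3 counts covers counting error only, and the microglia tables, at 5530125 to 11770194 counts, limit what can be said of low genes there.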
